A study of Mus musculus with 9 samples.

Results

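The genes described are 7 mucins other than *Muc2*: the membrane-bound mucins *Muc1*, *Muc3*, *Muc4*, *Muc13* and *Muc20*, and the gel-forming mucins *Muc5ac* and *Muc6*. They were chosen by name, and each was read from probe sets that the array annotation pairs with that gene alone, under its present or a former symbol. Such probe sets were found for 6 of the 7 genes (10 of the 45037 probe sets that are not controls), and *Muc6* is not analysed here. *Muc1*, *Muc3*, *Muc4* and *Muc13* were bright enough to be tested, as were 11453 of the 18193 genes with a probe set of their own, whereas *Muc5ac* and *Muc20* were too dim.

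RNA came from the large intestine of 9 mice, with 1 Affymetrix mouse array for each. The labels give all of them as male and 8 weeks of age, and each mouse gave 1 pool of equal parts of proximal and distal RNA. The 3 wild-type mice were C57BL/6. The 3 *Winnie* mice were of the same strain and carried an ENU-induced missense mutation in *Muc2* that replaces a cysteine by a tyrosine in the N-terminal D3 domain, and the 3 *Eeyore* mice carried one that replaces a serine by a proline in the C-terminal D4 domain, on a mixed C57BL/6 and NOD-SCID background. ENU is a chemical mutagen. Each mutation stands for 1 line, and in *Eeyore* mice the allele and the mixed background cannot be told apart.

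Membrane-bound mucins are heavily glycosylated proteins of the apical cell surface, anchored by a single membrane-spanning segment, and in the large intestine they form the glycocalyx on the microvilli beneath the secreted mucus. Gel-forming mucins are secreted and assemble into polymers. Muc2 is the gel-forming mucin of intestinal goblet cells, whereas Muc5ac and Muc6 are chiefly made by mucous cells of the stomach. *Muc5ac* and *Muc6* lie on chromosome 7 on either side of *Muc2*. *Muc4*, *Muc13* and *Muc20* lie on chromosome 16, *Muc1* on chromosome 3 and *Muc3* on chromosome 5.

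The 250 bases before the start site of the tested genes are shown because these genes differed in how far they moved in the mutant mice. They are from RefSeq (GRCm38.p6) and are written 5′ to 3′ on the strand of the gene, with capitals marking a match, on either strand, to the TATA box TATAAA, the CCAAT box CCAAT, the GC box GGGCGG or the STAT site TTCNNNGAA. *Muc13* has 2 listed start sites, of which the first is shown.
Muc1 (chr3:89228806-89229055, plus strand): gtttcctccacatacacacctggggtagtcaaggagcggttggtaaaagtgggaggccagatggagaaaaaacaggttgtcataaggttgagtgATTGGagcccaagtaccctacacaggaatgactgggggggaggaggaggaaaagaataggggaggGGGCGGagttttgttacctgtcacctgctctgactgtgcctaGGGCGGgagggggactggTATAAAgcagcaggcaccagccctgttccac
Muc3 (chr5:137166047-137166296, minus strand): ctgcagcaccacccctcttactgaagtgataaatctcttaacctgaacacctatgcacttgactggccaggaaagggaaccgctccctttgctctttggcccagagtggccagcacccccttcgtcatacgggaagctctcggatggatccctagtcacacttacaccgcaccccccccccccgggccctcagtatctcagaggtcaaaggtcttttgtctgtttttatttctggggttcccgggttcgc
Muc4 (chr16:32735636-32735885, plus strand): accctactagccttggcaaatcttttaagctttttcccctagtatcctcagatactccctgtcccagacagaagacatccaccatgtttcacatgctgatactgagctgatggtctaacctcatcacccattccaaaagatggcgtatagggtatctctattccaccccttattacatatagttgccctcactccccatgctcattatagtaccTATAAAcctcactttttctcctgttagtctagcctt
Muc13 (chr16:33793787-33794036, plus strand): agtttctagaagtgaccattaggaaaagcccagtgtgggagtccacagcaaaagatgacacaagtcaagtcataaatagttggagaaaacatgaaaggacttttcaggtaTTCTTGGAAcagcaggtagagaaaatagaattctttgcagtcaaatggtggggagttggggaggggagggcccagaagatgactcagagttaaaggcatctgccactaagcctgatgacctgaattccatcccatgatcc
The promoter of *Muc1* held 1 TATA box, 1 CCAAT box (on the opposite strand) and 2 GC boxes, that of *Muc4* held 1 TATA box, that of *Muc13* at its first start site held 1 STAT site, and none of these letters were found in that of *Muc3*. None were found before the second listed start site of *Muc13* either. The first base of the TATA box stood at -31 in *Muc1* and at -36 in *Muc4*, counted from the start site. Of 32851 mouse promoters of the same length, 12.37% held the TATA box, 33.85% the CCAAT box, 32.74% the GC box and 7.02% the STAT site. The GC content was 54.8% for *Muc1*, 55.6% for *Muc3*, 43.6% for *Muc4* and 44.8% for *Muc13*, against a median of 52.4% over all promoters.

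Some facts of the arrays bear on all values. The authors' signals are linear intensities, and array medians ran from 118.3 to 128.6 for the wild-type group and from 87.9 to 99.3 for both mutant groups. The floor is taken here as 41.1, the 25th percentile of the array on which it was highest, and signals under it are read as imprecise. *Xist*, transcribed from the inactive X chromosome, averaged 7849 ± 448 (SD, n = 3) across wild-type arrays, 38.4 ± 26.8 across *Winnie* and 83.9 ± 21.2 across *Eeyore* arrays. For Y-linked *Eif2s3y* the averages were 17.6 ± 11.1, 1291 ± 196 and 1260 ± 63.7. These values go against the labelled sex of all 3 wild-type mice, so that sex and genotype cannot be told apart in either comparison with wild-type. Removing these mice would leave no control. The fold change of *Eeyore* against *Winnie* mice does not use them, but they enter the filter and the estimate of spread in its test. *Muc2* itself averaged 76999 ± 8135, 32081 ± 5494 and 35110 ± 2271.

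In *Eeyore* mice, *Muc1*, *Muc3* and *Muc4* were lower than in wild-type mice, by 3.55-fold, 1.20-fold and 1.73-fold, and *Muc13* differed little in its mean, on the deposited scaling (with arrays centred on their medians *Muc3* was not lower). *Muc1* passed the filter on signal only through its level in wild-type mice, so that its call counts here as a description. In *Winnie* mice *Muc1*, *Muc3* and *Muc4* had lower means on the deposited scaling and none was called from its brightest probe set, whereas with median centring *Muc3* (0.23) and *Muc13* (0.36) were called higher and *Muc4* was at 0.02. In limma's test with Benjamini-Hochberg adjustment over 22519 probe sets and a threshold of 0.05, 3 of the 4 tested mucins fell in *Eeyore* mice and none rose. *Muc1* is among the 3, so that only the calls of *Muc3* and *Muc4* can be set beside the share of all genes. Over all 11453 tested genes, 16.6% were lower and 14.0% higher in *Eeyore* mice. In *Winnie* mice, 0 of the 4 were called (3 at an unadjusted p under 0.05, *Muc1* among them), where 11.9% of all genes were lower and 11.3% higher. The median log2 fold change of the 4 genes was -0.29 for *Winnie* and -0.52 for the *Eeyore* comparison, beside -0.09 and -0.09 over all tested probe sets. With *Muc1* set aside, the median is the value of *Muc3*, -0.18 and -0.26. Both comparisons share the wild-type mice. With 3 mice against 3, an exact permutation test of a single gene cannot give a two-sided p below 0.1.

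*Muc4* is a large membrane-bound mucin whose extracellular part carries EGF-like domains and which is known to bind the receptor ErbB2. Its brightest probe set had signals of 2181, 2164 and 2113 in the 3 wild-type mice. In *Winnie* mice they were 1696, 1288 and 2031, and in *Eeyore* mice 1312, 1272 and 1163. All 6 mutant mice lay below all wild-type mice, and *Winnie* mouse 2 lay within the range of the *Eeyore* mice. How many of all probe sets separated the groups in such a way was not counted, here or for the mucins below. By its name, the brightest probe set of *Muc4* holds probes that other transcripts may also bind. The log2 fold change was -0.79 (95% confidence interval -1.12 to -0.46, adjusted p = 0.00273, limma) in *Eeyore* and -0.39 (-0.72 to -0.06, adjusted p = 0.0863) in *Winnie* mice. The latter was 0.02 with median centring (adjusted p = 0.934), -0.21 without *Winnie* mouse 2 (adjusted p = 0.279) and a called -0.54 without *Winnie* mouse 3 (adjusted p = 0.0321). A mean over the probe sets of *Muc4*, which takes in one that is nearly all under the floor, ended the call in *Eeyore* mice (0.24, adjusted p = 0.671).

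A second probe set of *Muc4* separated the 3 groups. Its signals were 707.0, 683.2 and 705.5 in wild-type, 469.5, 414.0 and 526.1 for *Winnie* and 329.3, 344.0 and 354.8 for *Eeyore* mice. No 2 groups overlapped. In *Eeyore* mice it fell by 1.03 ± 0.15 (SE) on the log2 scale (2.04-fold, adjusted p = 0.000582, limma), and this call held under each of the 21 tested alternatives. In *Winnie* mice it fell by 0.58 ± 0.15 (adjusted p = 0.0190), a call that the brightest probe set did not give. That call was lost with the arrays centred on their medians (-0.17, adjusted p = 0.435) or on colonocyte markers (-0.57, adjusted p = 0.0714), and without any 1 of the 3 wild-type mice (adjusted p from 0.0514 to 0.0585) or *Winnie* mouse 2 (adjusted p = 0.0675). Between the mutant strains it differed by -0.45 (*Eeyore* minus *Winnie*), which missed the threshold (adjusted p = 0.174).

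The third probe set of *Muc4* had signals of 2.9, 10.9 and 2.3 in wild-type, 7.0, 2.1 and 2.6 for *Winnie* and 5.9, 92.1 and 26.0 for *Eeyore* mice. It was under the floor on 8 of 9 arrays and was not tested.

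*Muc1*, the short membrane-bound mucin whose cytoplasmic tail takes part in signalling, was read from 1 probe set of low signal. Its signals were 198.7, 367.9 and 196.3 in wild-type mice. They were 111.6, 98.6 and 59.1 in *Winnie* mice, and 31.4, 93.0 and 110.1 in *Eeyore* mice. All 6 mutant mice lay below all wild-type mice, the *Winnie* and *Eeyore* mice overlapped, and 1 *Eeyore* array was under the floor.

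The log2 fold change of *Muc1* was -1.83 ± 0.50 (SE, 95% confidence interval -2.92 to -0.73, adjusted p = 0.0180, limma) in *Eeyore* mice. In *Winnie* mice it was -1.49 ± 0.50 (-2.59 to -0.39, adjusted p = 0.0541). The mean log2 signal was 7.92 in wild-type and 6.27 over the mutant mice, where the filter was 6.43, so that *Muc1* was tested only because of its level in wild-type mice. Without wild-type mouse 2, its brightest array, the call in *Eeyore* mice was lost (-1.53, adjusted p = 0.0847), as it was with signals under the floor raised to it (-1.70, adjusted p = 0.0672).

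*Muc3*, a membrane-bound mucin of the brush border of enterocytes and colonocytes, was read from 1 probe set of high signal. Its signals were 54481, 55164 and 57256 in wild-type mice. They were 50338, 45205 and 51712 in *Winnie* mice, and 48529, 45743 and 45201 in *Eeyore* mice. Every mutant mouse lay below every wild-type mouse, by little, and the mutant strains overlapped.

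*Muc3* fell by 0.26 ± 0.07 (SE) on the log2 scale in *Eeyore* mice (adjusted p = 0.0155, limma). In *Winnie* mice the difference was -0.18 ± 0.07 (adjusted p = 0.0803). The direction depended on how the arrays were scaled: centred on their medians, *Muc3* was 0.23 higher in *Winnie* (adjusted p = 0.0318) and 0.07 higher in *Eeyore* mice (adjusted p = 0.524). The call in *Eeyore* mice was also lost with no filter (adjusted p = 0.118), with no intensity trend (adjusted p = 0.119), without *Eeyore* mouse 2 (adjusted p = 0.0535), with signals raised to the floor (adjusted p = 0.0804) and with arrays centred on colonocyte markers (-0.15, adjusted p = 0.429).

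*Muc13*, a membrane-bound mucin with EGF-like domains that is abundant in the large intestine, had the smallest differences of the 4 tested mucins on the deposited scaling. Its brightest probe set had signals of 31426, 32588 and 29176 in wild-type, 28724, 33613 and 28186 for *Winnie* and 27712, 27706 and 37746 for *Eeyore* mice. The 3 groups overlapped, and *Eeyore* mouse 3 was the highest of all. The log2 fold change was -0.04 (95% confidence interval -0.30 to 0.21, adjusted p = 0.816, limma) in *Winnie* and -0.01 (-0.27 to 0.24, adjusted p = 0.939) in *Eeyore* mice.

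The other probe set of *Muc13* had signals of 5806, 6735 and 7423 in wild-type, 6530.0, 7400.2 and 6606 for *Winnie* and 7058, 5526 and 7566 for *Eeyore* mice. The groups overlapped here too, with log2 fold changes of 0.05 (adjusted p = 0.830, limma) and 0.01 (adjusted p = 0.971). These differences had no direction that every scaling kept. With arrays centred on their medians the brightest probe set was higher in *Winnie* mice (0.36, adjusted p = 0.0317), and with arrays centred on epithelial markers it was lower in *Eeyore* mice (-0.33, adjusted p = 0.0286).

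**Figure D1:**
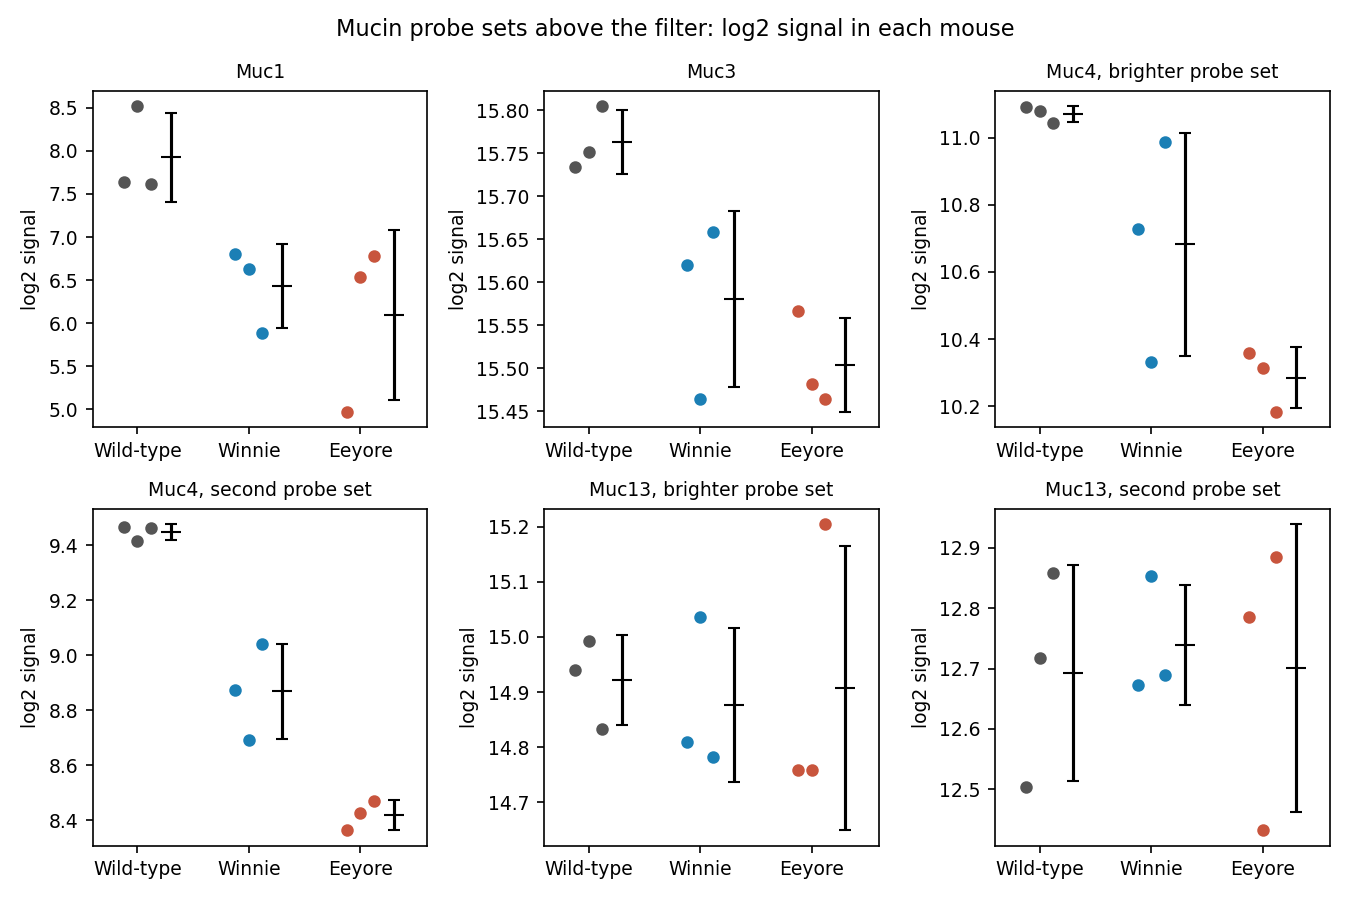
Log2 signal of the 6 tested mucin probe sets in each of the 9 mice (points), with the group mean and SD (bars, n = 3), each panel on its own axis that does not start at 0. All *Winnie* and *Eeyore* mice lie below the wild-type mice for *Muc1*, *Muc3* and both probe sets of *Muc4*, the 3 groups do not overlap for the second probe set of *Muc4*, and the groups overlap for *Muc13*. How many of all probe sets separate the groups in such a way was not counted.

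*Muc20*, a membrane-bound mucin known to associate with the receptor Met, was dim. The brighter of its 2 probe sets had signals of 4.2, 62.3 and 77.7 in wild-type, 137.3, 83.6 and 51.7 for *Winnie* and 102.1, 96.1 and 77.7 for *Eeyore* mice. The groups touched or overlapped, and 1 wild-type array was under the floor and far below the other 2. With no filter on signal its log2 fold change was 1.62 in *Winnie* (adjusted p = 0.357, limma) and 1.74 in *Eeyore* mice (adjusted p = 0.278). The second probe set ran from 2.9 to 54.2 and was under the floor on 7 of 9 arrays.

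*Muc5ac*, the gel-forming mucin of the stomach surface, gave signals of 6.1, 7.4 and 14.5 in wild-type, 6.8, 13.3 and 10.9 for *Winnie* and 14.5, 53.6 and 30.5 for *Eeyore* mice. It was under the floor on 8 of 9 arrays. *Eeyore* mouse 2 was the exception. With no filter, its log2 fold changes of 0.20 (adjusted p = 0.945, limma) and 1.73 (adjusted p = 0.355) were not called.

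**Figure D2:**
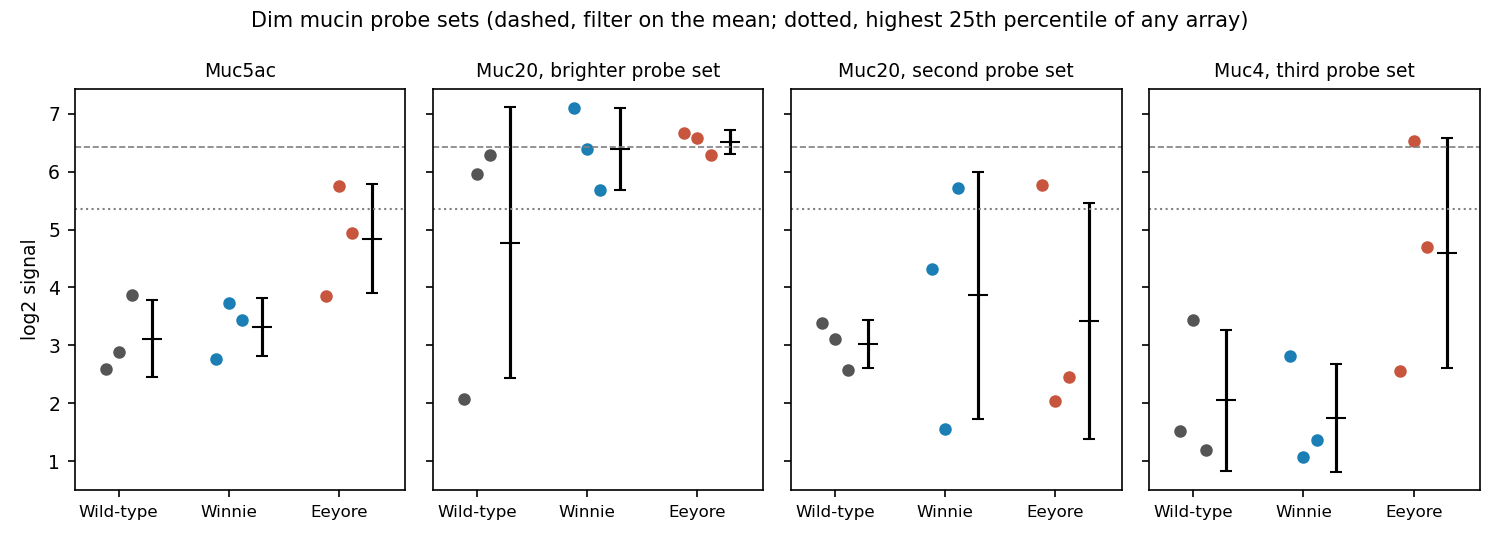
Log2 signal of the 4 mucin probe sets below the filter in each of the 9 mice (points), with the group mean and SD (bars, n = 3). The dashed line is the filter on the mean over all arrays (6.43) and the dotted line the log2 of the floor (5.36): *Muc5ac*, the second probe set of *Muc20* and the third of *Muc4* lie mostly under the dotted line.

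The mutant strains were compared directly to ask whether the 2 mutations went with different levels. No tested mucin differed between *Eeyore* and *Winnie* mice (0 of 4 called and 1 at an unadjusted p under 0.05, in limma's test), where 2.59% of all genes were called. The difference, *Eeyore* minus *Winnie*, was -0.34 for *Muc1* (adjusted p = 0.807), -0.08 for *Muc3* (adjusted p = 0.654), -0.40 for *Muc4* (adjusted p = 0.234) and 0.03 for *Muc13* (adjusted p = 0.936). Without *Winnie* mouse 2, the lowest of its group for *Muc4*, that gene was called lower in *Eeyore* mice (-0.57, adjusted p = 0.0406).

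Signals of several sets of cell type markers differed between the groups. The counts below are of called genes. Over all tested genes, 11.3% were higher and 11.9% lower in *Winnie* mice, and 14.0% higher and 16.6% lower in *Eeyore* mice. The summed signal of 10 smooth muscle markers was 155464 to 161263 in wild-type, 72073 to 76941 in *Winnie* and 58044 to 63942 in *Eeyore* mice, and all 10 fell in both mutant strains. That of 7 epithelial markers (such as *Epcam* and *Krt8*) was 159351 to 166017, 185289 to 192773 and 201129 to 219113, and 2 rose in *Winnie* and 5 in *Eeyore* mice. The sum of 11 surface colonocyte markers overlapped between all groups, at 212014 to 241609, 198093 to 247305 and 219226 to 225401, with 3 higher and 2 lower in each mutant strain. For 8 goblet cell markers, the sum was 258010 to 302578, 194567 to 234424 and 276785 to 327545, of which 1 rose and 3 fell for *Winnie*, and 2 rose and 2 fell for *Eeyore*. Leukocyte markers, 11 in all, summed to 7515 to 8929, 8683 to 12377 and 9112 to 18103. Of the 10 tested, 1 rose and 1 fell in *Winnie* mice, and 2 rose and 0 fell in *Eeyore* mice. *S100a8* rose in both strains, and *Lyz2* in *Eeyore* mice only. The mean log2 signal of *S100a8* reached 9.18 (*Winnie*) and 8.61 (*Eeyore*) but was 5.04 for the control group, under the filter of 6.43. It was tested only because of its level in the mutant mice, so that its calls count as a description. The sums of 4 mesothelial markers were 614 to 1125, 352 to 529.6 and 94.8 to 294. Of the 2 tested, 0 were called in *Winnie* mice and 1, *Krt5*, fell in *Eeyore* mice. Mean log2 signals in wild-type, *Winnie* and *Eeyore* mice were 8.92, 7.34 and 5.46 for *Krt5* and 8.04, 5.68 and 5.64 for *Upk3b*. The *Eeyore* means of both were under the filter of 6.43, so that these mesothelial counts are a description. The part of these differences in the mucin values was not tested, and in whole tissue fewer cells of a type and less RNA per cell cannot be told apart.

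When the arrays were instead centred on the 7 epithelial markers, the mucins stood lower. In *Winnie* mice *Muc1* (-1.70), *Muc3* (-0.40) and *Muc4* (-0.60) were then called lower, and in *Eeyore* mice all 4 tested mucins were. This scaling shifted the median of all tested probe sets by -0.21 in *Winnie* and -0.32 in *Eeyore* mice. Of the 22519 probe sets, 994 were then called higher and 5453 lower in *Winnie* mice, and 931 higher and 8287 lower in *Eeyore* mice. Centring each array on its own median shifted the median of all tested probe sets by 0.41 and 0.33. The split of calls into higher and lower probe sets then stood at 7234 to 853 for *Winnie*, against 2195 to 2639 as deposited. For *Eeyore* it stood at 6350 to 1877, against 2747 to 3842. *Muc1* (-1.50) and *Muc4* (-0.46) remained lower in *Eeyore* mice under median centring (adjusted p = 0.0333 and 0.0316, limma).

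**Figure D3:**
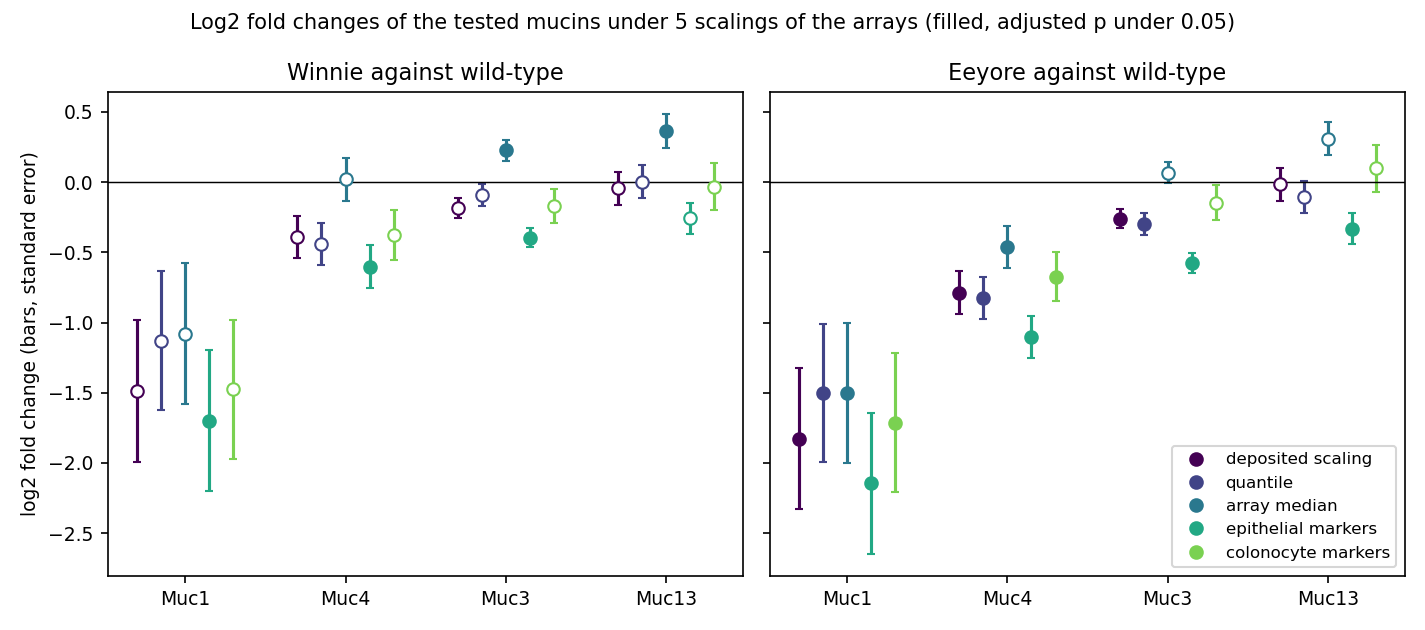
Log2 fold change against wild-type of *Muc1*, *Muc4*, *Muc3* and *Muc13*, each from its brightest probe set, in *Winnie* (left) and *Eeyore* mice (right) under 5 scalings of the 9 arrays, with bars for the SE and filled points where the adjusted p was under 0.05. *Muc1* is below 0 under all 5 in both strains and *Muc4* in *Eeyore* mice, while with median centring *Muc3*, *Muc13* and *Muc4* stand above 0 in *Winnie* mice (0.23, 0.36 and 0.02), and *Muc3* and *Muc13* in *Eeyore* mice (0.07 and 0.31).

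A list of 14 other genes holds mucins, mucin-like genes, sialomucins and the adhesion molecule *Mcam*, which is not a mucin. Of the 14, 12 had a probe set of their own and 6, *Mcam* among them, were tested (*Muc19* and *Muc21* are listed under the present symbols *Smgc* and *Gm9573*). In *Winnie* mice 4 fell and none rose (median log2 fold change -1.18), and in *Eeyore* mice 5 fell and none rose (median -1.28), where 11.9% and 16.6% of all tested genes were lower and the median over all probe sets was -0.09 in both. With median centring 1 rose and 2 fell in *Winnie* mice, and 1 rose and 4 fell in *Eeyore* mice. *Muc2* was 1.27 lower on the log2 scale in *Winnie* (adjusted p = 8.0e-05, limma) and 1.13 lower in *Eeyore* mice (adjusted p = 7.7e-05). *Podxl*, a sialomucin of endothelium and podocytes, went from a signal of 424 ± 26.4 (SD, n = 3) to 159.8 ± 16.1 and 140.9 ± 14.8. *Mcam* (-1.28 and -1.64), a melanoma and vascular adhesion molecule, and *Emcn* (-1.08 and -1.43), the endothelial sialomucin endomucin, fell in both strains as well, but with no filter neither was called in *Winnie* mice (adjusted p = 0.0513 and 0.101, limma). *Cdhr5*, a mucin-like cadherin of the microvillus tip, fell in *Eeyore* mice (-0.42, adjusted p = 0.0167) and was at -0.28 in *Winnie* mice (adjusted p = 0.0986).

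The list of 12 partners of membrane-bound mucins holds receptors, adaptors and linkers of the microvillus, 11 of which were tested. In *Winnie* mice 2 rose and 1 fell (median log2 fold change 0.08), where 11.3% of all tested genes were higher and 11.9% lower. In *Eeyore* mice 2 rose and 2 fell (median 0.11), where 14.0% of all tested genes were higher and 16.6% lower. With median centring 7 rose and none fell in *Winnie* mice, and 5 rose and 1 fell in *Eeyore* mice. *Erbb3*, the receptor that pairs with ErbB2, had signals of 8656, 8587 and 8681 in wild-type, 6548, 5607 and 6252 for *Winnie* and 5064, 4972 and 6389 for *Eeyore* mice. It was lower in all 6 mutant mice, with log2 fold changes of -0.50 (adjusted p = 0.00755, limma) and -0.67 (adjusted p = 0.000969). *Erbb2* was at -0.28 (adjusted p = 0.156) and -0.23 (adjusted p = 0.228) and was not called.

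*Met*, the receptor for hepatocyte growth factor, rose from 1377 ± 239 (SD, n = 3) in wild-type to 2060 ± 109 in *Winnie* and 2031 ± 149 in *Eeyore* mice (log2 fold changes 0.59 and 0.57, each with limma's adjusted p, 0.00986 and 0.0085). *Ezr*, which encodes ezrin, the linker of microvillus membranes to actin, rose in *Winnie* mice (0.46, adjusted p = 0.00301) and was at 0.24 in *Eeyore* mice (adjusted p = 0.0505). *Grb2*, an adaptor of growth factor receptors, rose in *Eeyore* mice (0.41, adjusted p = 0.0331). *Cdhr2*, the cadherin that binds Cdhr5 between microvilli, fell in *Eeyore* mice (-0.39, adjusted p = 0.0144). Whether these genes differed between the strains was tested too, and none was called.

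Of 12 genes of gastric mucous cells, the cells that make Muc5ac and Muc6, 5 were tested, of which 1 fell in *Winnie* and 2 fell in *Eeyore* mice and none rose, beside the same shares of all genes (11.9% and 16.6% lower). *A4gnt*, the enzyme that adds the terminal sugar typical of Muc6-bearing gland mucus, fell from a signal of 527 ± 64.5 (SD, n = 3) to 91.3 ± 41.9 in *Winnie* (-2.61, adjusted p = 0.000347, limma) and to 184 ± 49.5 in *Eeyore* mice (-1.54, adjusted p = 0.00427). *Tff1*, a trefoil peptide of the gastric surface, was at -0.53 (adjusted p = 0.177) in *Winnie* and fell in *Eeyore* mice (-0.77, adjusted p = 0.0484), a call that was lost with no filter (adjusted p = 0.0808). The others were not called: *Ctse* was at 0.22 and -0.16, *Gkn3* at -0.13 and 0.35, and *Psca* at -0.64 and -0.84. The median over the 5 was -0.53 and -0.77. *Tff2*, the trefoil peptide of gastric glands, was below the filter, with signals of 1167, 999 and 67.9 in wild-type, 5.4, 50.5 and 10.3 for *Winnie* and 153.7, 92.2 and 78.1 for *Eeyore* mice. Wild-type mice 1 and 2 stood apart from all other mice.

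**Figure D4:**
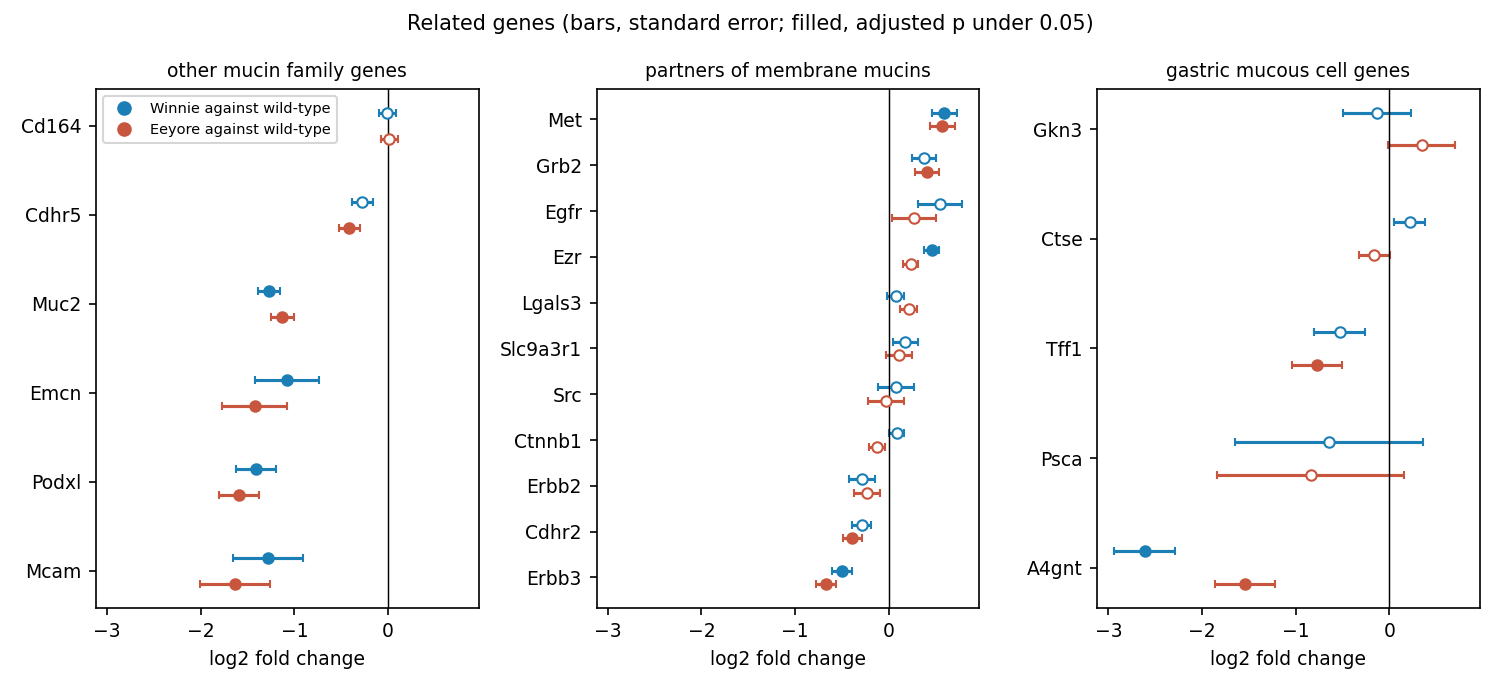
Log2 fold change against wild-type, with SE, of the tested genes of 3 related lists in *Winnie* (blue) and *Eeyore* mice (red), filled where the adjusted p was under 0.05. Of the list of other mucin family genes, *Mcam* (not a mucin), *Podxl*, *Emcn* and *Muc2* lie near or below -1 in both strains. The partners lie on both sides of 0, and *A4gnt* has the lowest value (-2.61, *Winnie*).

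The genes with the most similar profile were found by the root mean square difference of log2 signals over the 9 arrays, each gene set relative to its wild-type mean, among 11452 genes. For *Muc4* they were *Nln* (0.10), *Ube4b* (0.10) and *Cbfa2t2* (0.10). For *Muc3* they were *Mindy1* (0.05), *Serinc3* (0.05) and *Dip2a* (0.06). For *Muc1* they were *Fmo2* (0.37), *S1pr3* (0.41) and *Nr1d1* (0.42). Other mucins were left out of these nearest genes, and each stood farther off than the genes named. The distance was 0.25 between *Muc3* and *Muc13*, 0.35 between *Muc4* and *Muc3*, and 0.56 between *Muc4* and *Muc13*. From *Muc1* it was 1.09 to *Muc4*, 1.32 to *Muc3* and 1.43 to *Muc13*.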

How the data were processed

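Large intestinal RNA of 9 mice, 3 per group, was run on Affymetrix mouse arrays. The authors deposited 1 linear signal intensity per probe set and array, with a 2% trimmed mean of 500 on every array. How the signals were computed from the scans is not given in the sources used here, and no detection calls were used. The log2 of each deposited intensity was taken with no further scaling. The filter kept 22519 of 45037 probe sets (controls left out), those at or above the 50th percentile of mean log2 intensity (6.43, a signal of 85.9). With 3 arrays in a group, the number of mice sets the precision.

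The platform annotation, updated by gene identifier, gave 34945 probe sets a single gene, 932 several genes and 9160.0 no gene. Genes were read from their brightest probe set, and for the mucins every probe set is given. The test was limma 3.58.1 under R 4.3.3: lmFit with a mean for each group over all 9 arrays, eBayes with trend, pairwise contrasts of the 3 groups, and Benjamini-Hochberg adjustment over all tested probe sets at 0.05. It was first tested on simulated data. Folds are powers of the fitted log2 differences. The text names every probe set of the mucins and, of each list, the 3 called genes with the largest changes in each mutant strain. *Erbb2*, *Cdhr5*, *Cdhr2*, *Tff2*, *Ctse*, *Gkn3* and *Psca* fall outside this rule and were picked with their values known. The members and lists were chosen with earlier results of these data known. The labels number the mice, and p-values measure the spread between these samples only. RefSeq promoters of GRCm38.p6 were matched by symbol (6 of the 7 genes). Python 3.11.15 with matplotlib 3.10.9 drew the figures.

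Each result was recomputed with the arrays quantile-normalized or centred on their medians, with the filter dropped or raised to the 75th percentile, after adding 32 to each signal, without the trend, with robust variances, on the compared groups alone, with the mouse number as a block, without each mouse in turn, from the mean of a gene's probe sets, and as a ratio of group means. Centring on epithelial or colonocyte markers and raising signals to the floor of 41.1 were added after the data were seen.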

Additional observations from a re-analysis of the deposited data

Results flagged for a closer look

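Among the lists beside the mucins, 6 markers differed between *Eeyore* and *Winnie* mice by limma's test of the difference itself. They were 2 of the 8 tested goblet cell markers and 4 of the 10 tested smooth muscle markers. No gene of another list was called, and over all tested genes 2.59% were. The goblet cell genes *Clca1* (0.97, adjusted p = 0.00881) and *Retnlb* (3.59, adjusted p = 7.4e-05) were higher in *Eeyore* mice on the log2 scale. The smooth muscle genes *Myh11* (-0.58, adjusted p = 0.0100), *Tagln* (-0.34, adjusted p = 0.0367), *Synpo2* (-0.67, adjusted p = 0.0424) and *Myl9* (-0.38, adjusted p = 0.0100) were lower. With no filter on signal, *Tagln* (adjusted p = 0.124) and *Myl9* (adjusted p = 0.0524) were not called, and the other 4 were.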

How the results depend on the processing

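Against a main count of 0 mucins called in *Winnie* mice, median centring gave 2 (both higher), epithelial marker centring 3, and log2 of the signal plus 32, a robust variance model and only the groups compared 1 each. Leaving out 1 mouse gave 0 to 1, with *Muc4* called without *Winnie* mouse 3 (adjusted p = 0.0321) and *Muc1* without *Eeyore* mouse 1 (0.0153) or 3 (0.0429, limma). In *Eeyore* mice the count of 3 became 1 with signals raised to the floor, and all 4 tested mucins were called with epithelial marker centring. Several other settings ended the call of 1 mucin, as given above for *Muc1*, *Muc3* and *Muc4*. Between the strains the count was 0 to 1 with a mouse left out. Over the 3 related lists, the 8 genes called in *Winnie* mice became 5 with the 75th percentile filter and 5 with the mean over probe sets, and the 11 in *Eeyore* mice became 7 with that filter, 7 without an intensity trend and 7 to 12 with a mouse left out (7 without wild-type mouse 2). Between the strains 0 became 0 to 1 (1 without *Winnie* mouse 3). Log2 fold changes turned as follows. With median centring, *Muc3* was 0.23 and 0.066 in *Winnie* and *Eeyore* mice, *Muc4* 0.020 in *Winnie* mice, and *Muc13* 0.36, 0.31 and -0.054 (*Eeyore* minus *Winnie*). With the mean over probe sets, *Muc4* was 0.24 in *Eeyore* mice and 0.67 between the strains, and *Muc13* 0.00042 in *Winnie* mice and -0.0038 between the strains. With quantile normalization, *Muc13* was 0.0022 in *Winnie* mice and -0.11 between the strains, and its second probe set -0.076 and -0.13 in the mutant strains. With epithelial markers, that probe set was -0.17 and -0.31, and *Muc13* -0.074 between the strains. With colonocyte markers, *Muc13* was 0.10 in *Eeyore* mice, its second probe set 0.063 and *Muc3* 0.024 between the strains. With a mouse left out, *Muc13* ran from -0.13 to 0.0019, -0.16 to 0.060 and -0.12 to 0.11 in the 3 comparisons, its second probe set from -0.049 to 0.13, -0.087 to 0.14 and -0.13 to 0.10, and *Muc1* between the strains from -0.68 to 0.22. The cause of these turns was not tested. Mouse numbers did not pair the arrays (correlations from -0.00821 to 0.164 over 9 pairs, 1 above 0.1), and with the mouse number as a block no call of a mucin changed (in *Eeyore* mice adjusted p = 0.0200 for *Muc1*, 0.0198 for *Muc3* and 0.00432 for *Muc4*, limma). Dim signals limit *Muc1*, *Muc5ac* and *Muc20*.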
